A study of Mus musculus with 4 samples.

Results

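The genes described here encode 7 families of proteins that choose the substrates of ubiquitin ligases: the Asb, Fbxo, Fbxl, Fbxw, Klhl, Kbtbd and Trim genes. Members were the 67 genes whose symbol starts with one of these names followed by a digit, out of 7235 genes named in either of the deposited MyoD peak lists. A gene is named there only if a peak touched its body or a flank of 2000 bases, so a peak in at least 1 list is a condition of membership and not a result. Of the members, 14 were on a list of genes known for expression restricted to, or highest in, skeletal or cardiac muscle, and 53 were not. That list rests on general knowledge, since binding data hold no expression values.

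MyoD, a bHLH regulator of myogenesis that binds E-boxes, was mapped by ChIP-seq in myotubes, the fused cells formed from myoblasts. Primary myoblasts were isolated from C57BL/6 mice at 2 weeks of age and kept for 5 days in 2% horse serum to differentiate. The resulting myotubes then spent 24 hours in that medium either containing pyruvate or lacking it. Each condition had 1 ChIP library with 1 deposited peak list, and 1 input, not analysed here; no label says how many mice or cultures went into a library. Differences between the lists therefore have no replicates behind them, and p-values are not given. Lists are assigned to conditions by the sample titles. The abbreviations in the names of the deposited lists can be read the opposite way, and under that reading every comparison of with and without pyruvate given here would be reversed.

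The list labelled with pyruvate held 11907 peaks and the list labelled without pyruvate held 19338. A peak absent from 1 list is one that was not called there. Read depth is unknown, and how far absent peaks or list length follow depth was not tested. All 10 muscle marker genes chosen had a peak near the start site, or in a flank, in the list labelled with pyruvate. For Myog, Des, Ckm and Myh3 it lay in a flank of unknown side. Genes named only through such a flank count in at least 1 list by construction. A peak near the start site, or in such a flank, was found in the list labelled with pyruvate for 24.7% of all genes named. Of the 10 markers, 5 also had one in the other list, beside 18.7% of all genes with one in both. Of 10 marker genes of other cell types, 6 were named, beside 27.1% of all RefSeq protein-coding genes. Among the 6 markers named, 2 had such a peak in both lists and 3 only in the list labelled without pyruvate (18.7% and 17.7% of all genes). The side was unknown for Cd68 and Tubb3, and 6 genes are too few to set against these shares. Position, width and overlap of peaks were the only usable measures.

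Cullin-RING ligases are built on a cullin scaffold that holds a RING protein and an exchangeable adaptor. Asb proteins carry a SOCS box that docks through elongins B and C onto Cul5, F-box proteins (Fbxo, Fbxl and Fbxw) dock through Skp1 onto Cul1, and BTB-kelch proteins (Klhl and Kbtbd) bind Cul3 directly. Most Trim proteins are RING ligases in their own right. In striated muscle these families hold the atrophy ligase atrogin-1 (Fbxo32), the MuRF proteins of the sarcomere (Trim63, Trim55 and Trim54), and kelch proteins whose loss causes nemaline myopathy (Klhl40, Klhl41 and Kbtbd13). The files use the older symbols Kbtbd5 for Klhl40 and Kbtbd10 for Klhl41.

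The first question was how many genes of these families carried a peak at all. Of 25 muscle-restricted genes in the list, 14 had a peak in at least 1 library, or 56% (95% exact binomial interval 34.9 to 75.6). Of 185 other protein-coding genes of the same families in RefSeq, 53 did, or 28.6% (22.3 to 35.7), beside 27.1% of all RefSeq protein-coding genes. All members were matched to RefSeq, but only 6035 of the 7235 genes named were. The 27.1%, here and elsewhere, may therefore be too low. The intervals cover counting error only, here and below. The muscle-restricted genes with no row in the files used here were Trim63 (MuRF1), Fbxo40, which targets the insulin receptor substrate Irs1, Kbtbd13, Asb11, Asb12, Asb14, Asb15, Asb18, Klhl33, Klhl34 and Klhl38. By family, the files named 8 of 18 Asb genes, 14 of 36 Fbxo, 7 of 18 Fbxl, 5 of 24 Fbxw and 19 of 68 Trim genes. Under current symbols they named 13 of 37 Klhl genes and 1 of 9 Kbtbd genes.

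The second question was how peaks were spread over the members in each list. Both lists held a peak at all 14 muscle-restricted members, against 26 of the 53 others, and 55.1% of all genes named. A peak in the list labelled with pyruvate alone was found at 0 muscle-restricted members and 7 others (9.95% of all genes), and in the list labelled without pyruvate alone at 0 and 20 (35.0%). Counted by list, 14 muscle-restricted members and 33 others had a peak in the list labelled with pyruvate (65.0% of all genes), against 14 and 46 in the other (90.0%).

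Muscle-restricted members held 29 peaks in the list labelled with pyruvate against 18 in the list labelled without. The other members ran the opposite way, with 47 peaks and 79. The mean per gene was 2.07 and 1.29 peaks for muscle-restricted members and 0.887 and 1.51 for the others, where 1 peak listed for both Trim15 and Trim26 counts for each gene. More peaks in the list labelled with pyruvate were seen at 9 muscle-restricted members and 7 others (16.9% of all genes). More peaks in the list labelled without pyruvate were seen at 0 muscle-restricted members and 29 others (53.8% of all genes). Numbers were equal at 5 and 17. With the longer list reduced to its 11907 widest peaks, muscle-restricted members held 29 and 15 peaks and the others 47 and 54, and with peaks of at least 250 bases they held 19 and 12 against 25 and 41. In these 2 alternatives, unlike the 79 distinct peaks above, the Trim15 and Trim26 peak is again counted for each gene.

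**Figure D1:**
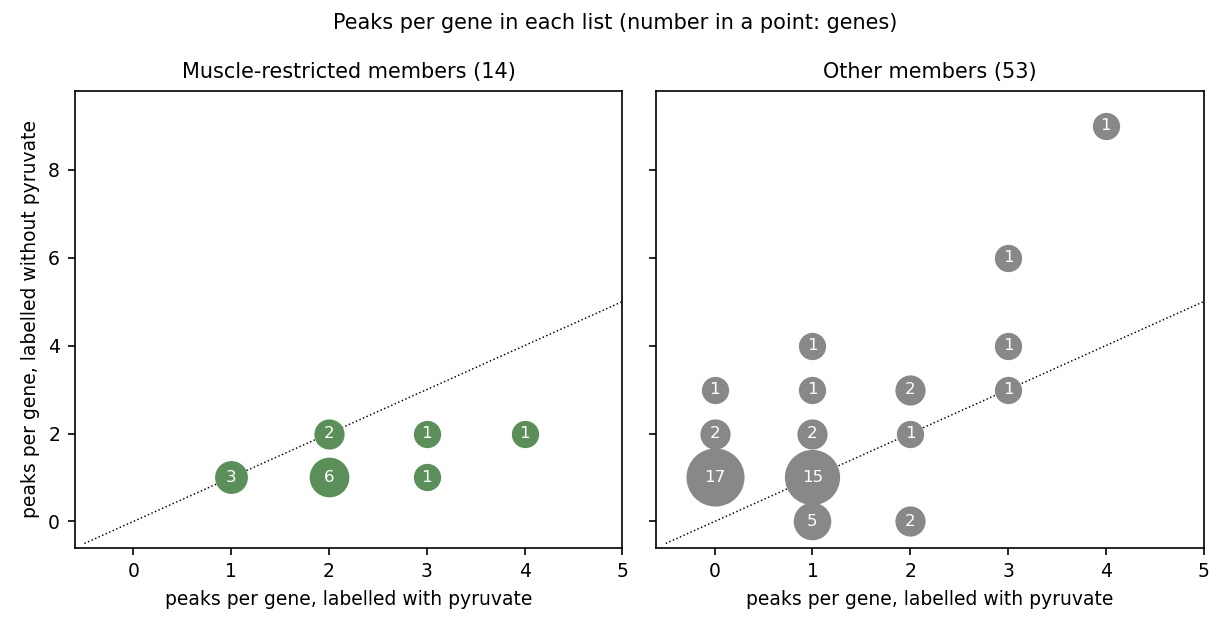
Peaks per gene in the list labelled with pyruvate (horizontal axis) against the list labelled without (vertical axis), for 14 muscle-restricted and 53 other members; the number in each point counts genes, and the dotted line marks equal numbers. All muscle-restricted members lie on or below the line, and 29 of the other members lie above it.

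The muscle-restricted members were then read gene by gene, starting with the SOCS-box adaptors. At Asb5, a skeletal muscle member, each list held a pair of peaks at the same places. One lay upstream, at chr8:55633648-55634050 of mm9 and 402 bases wide in the list labelled with pyruvate, and 421 bases wide in the other. The second covered the start site and was 312 and 360 bases wide. Asb2, which targets filamins for degradation during muscle differentiation, had a shared peak 2114 bases inside the gene from its start (214 and 224 bases wide). A further Asb2 peak, chr12:104576457-104576712 (255 bases), was found only in the list labelled with pyruvate, with no peak of the other list closer than 15.2 kb.

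Asb10 and Asb16 each had 1 peak in each list. The Asb10 peaks lay 3061 and 3078 bases inside the gene and were 217 and 212 bases wide. The Asb16 peaks lay in a flank, upstream or downstream not being known, and were 176 and 231 bases wide. All 4 Asb genes thus held a shared peak, and Asb2 alone among them had a peak in 1 list only.

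Of the F-box genes, Fbxo32, whose product atrogin-1 is induced in muscle wasting, held 3 peaks in the list labelled with pyruvate against 2 in the other, none of them within 2 kb of the start. The shared peaks lay 10.2 kb inside the gene (chr15:58035700-58036184, 484 bases, and 465 bases in the other list) and 2313 bases inside it (222 bases, and 301 in the other). The third, chr15:58023897-58024161, was 264 bases wide and 22.3 kb from the start. The 484-base peak was the widest of any muscle-restricted member in the list labelled with pyruvate, wider than 95.3% of that list by mid-rank. Fbxl22, an F-box protein of the cardiac Z-disc, had a shared peak 1421 bases inside the gene (325 and 293 bases) that also lies in the gene region of Usp3. It had another of 263 bases, also in Herc1, only in the list labelled with pyruvate.

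Among BTB-kelch genes, Kbtbd10 (Klhl41), a sarcomere protein that stabilises nebulin, held the most peaks of any muscle-restricted member, 4 in the list labelled with pyruvate against 2 in the other. Both shared peaks were upstream. One ended 15 bases before the start in the list labelled with pyruvate (chr2:69507831-69508162, 331 bases) and reached over it in the other (335 bases). The second lay 1370 bases before the start and was 258 and 193 bases wide. Inside the gene and just downstream of it, the list labelled with pyruvate held 2 narrower peaks of 184 and 197 bases, and the other list held none.

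Kbtbd5 (Klhl40), which stabilises the thin filament proteins nebulin and leiomodin-3, had a shared peak over its start site (chr9:121686549-121686931, 382 bases, and 327 bases in the other list). A second Kbtbd5 peak, 776 bases upstream and 237 bases wide, was found only in the list labelled with pyruvate. Klhl31, a skeletal muscle kelch protein, had a peak over its start of 305 bases (chr9:77484321-77484626) only in the list labelled with pyruvate, and a shared peak 588 bases inside the gene (465 and 386 bases). Klhl30 had 2 peaks in each list, at 1237 and 5188 bases inside the gene in the list labelled with pyruvate. The nearer Klhl30 peak was 435 and 394 bases wide and the farther 251 and 492, the latter being the widest muscle-restricted peak of its list. Kbtbd12 had a shared peak 39999 bases inside the gene (344 and 372 bases wide), and a peak of 289 bases over its start (chr6:88577410-88577699) only in the list labelled with pyruvate.

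Of the Trim genes, Trim55 (MuRF2), which binds titin and microtubules, had a shared peak over its start (chr3:19544082-19544527, 445 bases, and 391 bases in the other list). Inside Trim55, peaks of 176 and 169 bases were found only in the list labelled with pyruvate, where 169 bases is the smallest width present. Trim54 (MuRF3) had 1 peak in each list in a flank of unknown side, 190 and 205 bases wide. Trim72 (MG53), which acts in sarcolemma repair, had a peak over its start of 310 bases (chr7:135147256-135147566) only in the list labelled with pyruvate, and a shared peak 346 bases inside the gene in that list (347 and 228 bases).

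**Figure D2:**
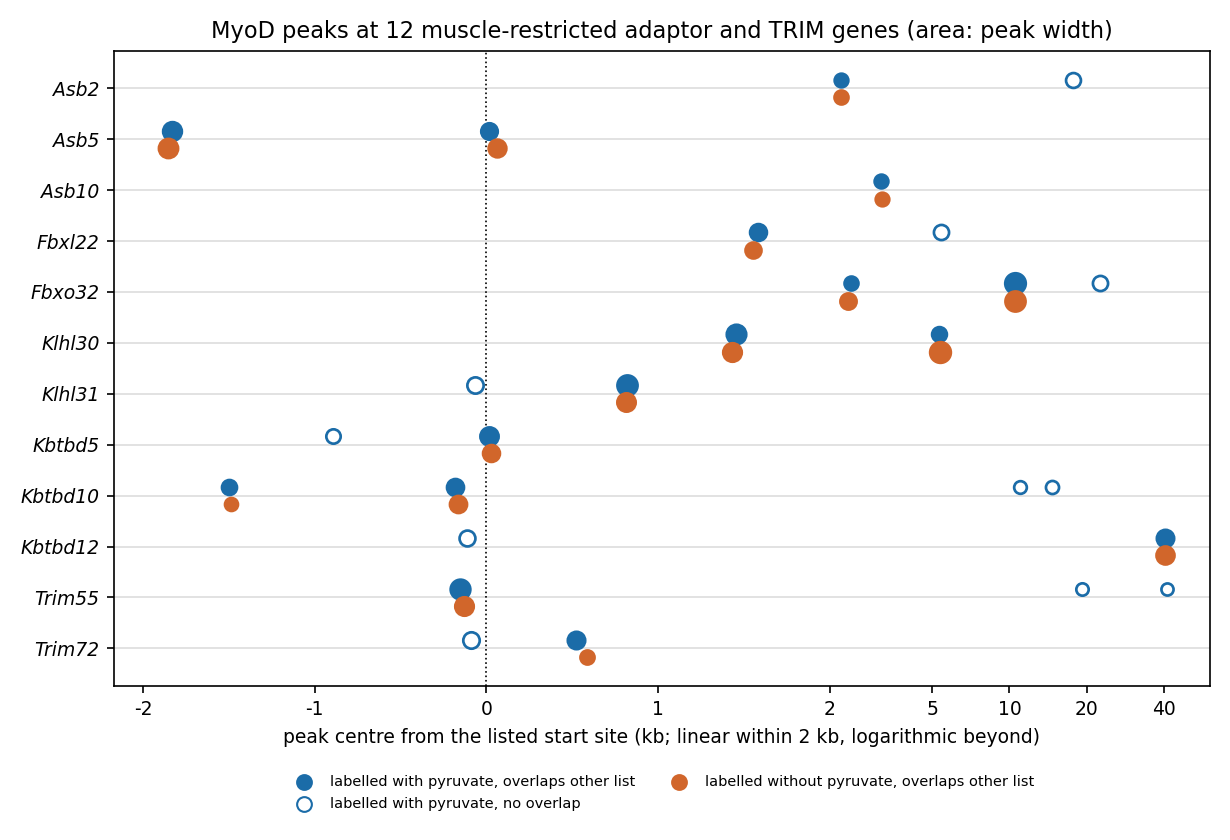
Peak centres at the 12 muscle-restricted members with a located start site, in kb from that start (negative is upstream; linear within 2 kb, logarithmic beyond); blue points are from the list labelled with pyruvate, orange from the list labelled without, filled points overlap the other list, and point area follows peak width. Every orange point is filled, while 11 blue points are open.

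Position within the gene was the third comparison. A peak was called promoter-proximal when it lay within 2 kb of a start site located from the listed gene regions, or in a flank of a gene with no located start. A gene with no located start is named only through a flank, so it has such a peak in at least 1 list by construction. Starts were located for 12 of 14 muscle-restricted members, 50 of 53 others and 5818 of the 7235 genes named. In the list labelled with pyruvate 11 of 14 muscle-restricted members had such a peak, or 78.6% (49.2 to 95.3), and 9 of 53 others, or 16.98% (8.07 to 29.8), beside 24.7% of all genes named. In the list labelled without pyruvate the counts were 10 of 14, or 71.4% (41.9 to 91.6), and 12 of 53, or 22.6% (12.3 to 36.2), beside 36.3% of all genes. With located starts alone, 9 muscle-restricted members and 7 others had such a peak in the list labelled with pyruvate, and 8 and 10 in the other. The share over all genes was not counted with located starts alone. Promoter-proximal peaks in both lists were found at 10 muscle-restricted members and 5 others (18.7% of all genes). They were found only in the list labelled with pyruvate at 1, Kbtbd12, and 4 others (6.01%), and only in the list labelled without at 0 and 7 (17.7%). The 3 muscle-restricted members with none were Asb2, Asb10 and Fbxo32, whose nearest peaks lay 2114, 3061 and 2313 bases from the start in the list labelled with pyruvate. The start used is the outer end of the listed gene region, and other start sites of a gene were not considered.

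A peak covered the start site itself at 6 of the 12 muscle-restricted members with a located start in the list labelled with pyruvate, and at 5 of 50 others (5.17% of all genes with a located start). In the list labelled without pyruvate it did so at 4 and 4 (6.31%). By peaks, 16 of 29 muscle-restricted peaks were promoter-proximal in the list labelled with pyruvate and 12 of 18 in the other, or 55.2% (35.7 to 73.6) and 66.7% (41.0 to 86.7). For the other members these were 10 of 47 and 15 of 79, or 21.3% (10.7 to 35.7) and 19.0% (11.0 to 29.4). Over all peaks listed with a gene the shares were 22.2% and 21.2%, near those of the other members. Peaks of muscle-restricted members lay a median of 1634 bases (list labelled with pyruvate) and 1400.5 bases (without) from the start, against 18834.5 and 20149.5 bases for the others. For all genes with a located start the medians were 31036 and 33078 bases.

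Gene length moved with this contrast. The median gene body was 18749 bases for muscle-restricted members with a located start, 36028.5 for the others and 47192 for all located genes, and a short gene leaves less room far from its start. The part of gene length in the position counts was not tested. Per 100 kb of gene body with flanks, muscle-restricted members had a median of 7.94 peaks in the list labelled with pyruvate against 6.65 in the other. The other members had 1.09 and 2.87, and all located genes 1.34 and 2.73. A peak is a condition of being named, so short genes tend to higher rates by construction. The part of gene length in these rates was not tested either.

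**Figure D3:**
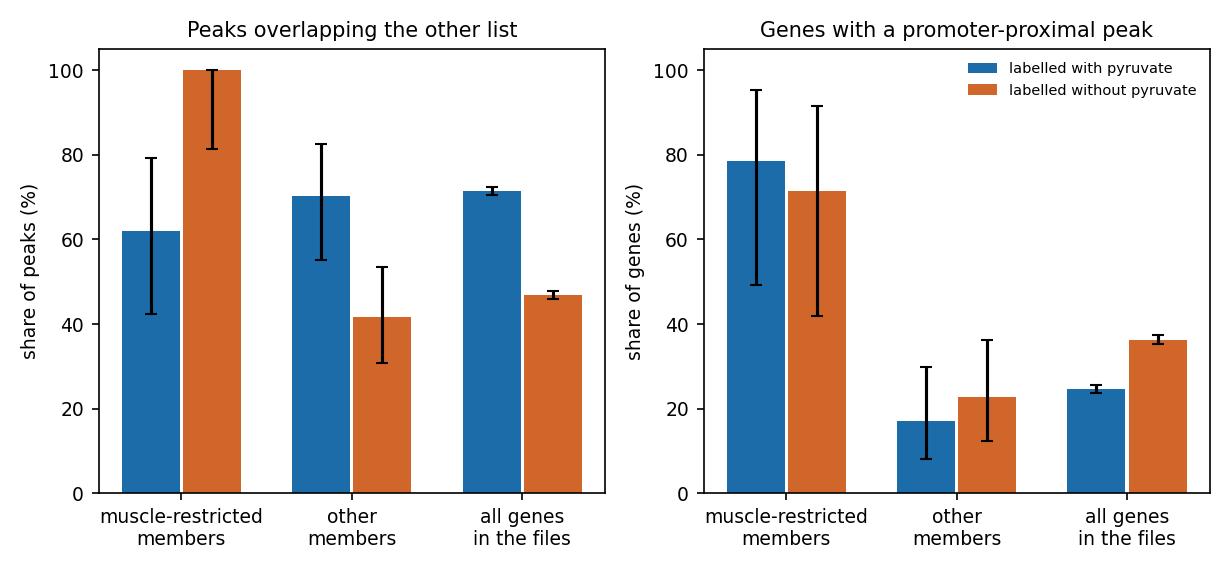
Left, share of peaks that overlap the other list; right, share of genes with a promoter-proximal peak, for muscle-restricted members, other members and all genes in the files; blue bars are the list labelled with pyruvate, orange bars the list labelled without, and error bars are 95% exact binomial intervals. Muscle-restricted members reach 100% overlap in the list labelled without pyruvate and 78.6% and 71.4% of genes with a promoter-proximal peak.

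The 250 bases before the start are given for the members with a peak there, though some of these peaks cover only the bases nearest the start. A peak reached this stretch at 14 members in at least 1 list, 7 of them muscle-restricted. Sequences are from RefSeq in GRCm38.p6, while peaks are in mm9, so each is printed only where gene length in RefSeq and in the files differed by at most 100 bases, which left 7 members. E-boxes, CANNTG on either strand, are in capitals; CAGCTG and CAGGTG are among them, CAGGTG being counted also as its reverse complement CACCTG. The first 3 are muscle-restricted members and the last 4 are other members:
Kbtbd10 (Klhl41), chr2:69669870-69670119, plus strand: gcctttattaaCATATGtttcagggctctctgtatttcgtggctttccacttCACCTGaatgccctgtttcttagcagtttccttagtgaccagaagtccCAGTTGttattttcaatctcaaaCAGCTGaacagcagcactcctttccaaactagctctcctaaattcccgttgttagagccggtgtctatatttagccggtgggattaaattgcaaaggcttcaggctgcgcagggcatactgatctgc
Asb5, chr8:54550081-54550330, plus strand: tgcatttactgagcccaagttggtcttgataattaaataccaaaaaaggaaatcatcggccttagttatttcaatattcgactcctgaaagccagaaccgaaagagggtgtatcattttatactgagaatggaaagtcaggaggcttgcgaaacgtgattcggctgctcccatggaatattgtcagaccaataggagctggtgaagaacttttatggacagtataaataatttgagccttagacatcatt
Klhl31, chr9:77636482-77636731, plus strand: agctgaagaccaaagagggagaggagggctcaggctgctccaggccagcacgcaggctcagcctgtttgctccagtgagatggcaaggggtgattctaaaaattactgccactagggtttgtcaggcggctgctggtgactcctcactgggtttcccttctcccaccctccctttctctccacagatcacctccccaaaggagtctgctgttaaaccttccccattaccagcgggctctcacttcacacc
Klhl21, chr4:152008641-152008890, plus strand: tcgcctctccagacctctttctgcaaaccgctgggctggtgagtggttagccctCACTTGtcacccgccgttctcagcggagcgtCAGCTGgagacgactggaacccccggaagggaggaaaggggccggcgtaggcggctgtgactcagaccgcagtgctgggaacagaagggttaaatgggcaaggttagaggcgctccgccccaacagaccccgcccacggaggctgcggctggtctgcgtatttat
Fbxo17, chr7:28716532-28716781, plus strand: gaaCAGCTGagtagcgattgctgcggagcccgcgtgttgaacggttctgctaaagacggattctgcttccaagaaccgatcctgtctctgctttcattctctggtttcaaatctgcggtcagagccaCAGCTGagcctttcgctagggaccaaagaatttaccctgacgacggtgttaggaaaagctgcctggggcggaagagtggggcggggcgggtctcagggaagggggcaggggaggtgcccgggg
Trim25, chr11:88999153-88999402, plus strand: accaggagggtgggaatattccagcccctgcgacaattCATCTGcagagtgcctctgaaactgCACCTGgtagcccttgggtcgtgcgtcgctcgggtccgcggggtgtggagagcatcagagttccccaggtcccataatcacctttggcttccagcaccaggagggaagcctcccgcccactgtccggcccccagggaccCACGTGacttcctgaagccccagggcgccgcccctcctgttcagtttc
Fbxw9, chr8:85059869-85060118, plus strand: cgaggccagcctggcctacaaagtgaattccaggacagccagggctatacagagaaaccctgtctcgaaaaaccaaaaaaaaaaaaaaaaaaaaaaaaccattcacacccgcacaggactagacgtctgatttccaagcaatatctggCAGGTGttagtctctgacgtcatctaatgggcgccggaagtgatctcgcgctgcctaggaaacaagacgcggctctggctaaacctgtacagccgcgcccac

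The Kbtbd10 window holds 4 E-boxes, and its CAGCTG begins 127 bases before the start. The Kbtbd10 peak reached from 346 to 15 bases before the listed start in the list labelled with pyruvate, a span that includes that distance. Klhl21, an adaptor of the mitotic spindle, has a CAGCTG 165 bases before the start. Fbxo17 has CAGCTG at 247 and 123 bases, and its peak in the list labelled with pyruvate ran from 255 bases before the listed start to 11 after it. The Trim25 peaks (list labelled with pyruvate first) began 53 and 44 bases before the start, so its CATCTG (212) and CACCTG (187) lie outside both. The Fbxw9 peaks began 90 and 116 bases before the start, so its CAGGTG (102) lies outside the first. The windows of Asb5 and Klhl31 hold no E-box, which says only that these letters are not in them, and the Asb5 and Klhl31 peaks also extend 169 and 87 bases past the start. Such matches are descriptions and not binding sites.

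Over all 32851 promoter windows of the same length, several for some genes, 66.2% held CANNTG, 13.0% CAGCTG and 17.2% CAGGTG. RefSeq windows, 1 per gene, were matched for 52 of the 67 members: 37 held CANNTG, 14 CAGCTG and 12 CAGGTG. The limit on gene length used for the printed sequences was not applied here, so some windows may not lie at the listed start. Of 11 muscle-restricted members matched, 9 held CANNTG and 4 CAGCTG, and of 41 others 28 and 10. Asb16 and Trim54, whose peaks lay in flanks of unknown side, were among the 4 with CAGCTG, together with Kbtbd10 and Kbtbd5. For Kbtbd5 the gene length in RefSeq and in the peak lists differed by 7489 bases.

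Overlap between the lists was the fourth comparison, with a peak counted as shared when it overlapped the other list by at least 1 base. All 18 muscle-restricted peaks of the list labelled without pyruvate were shared, or 100% (81.5 to 100). This stands beside 44.2% of that whole list and 46.9% of its peaks listed with a gene. Of the other members' peaks, 33 of 79 were shared there, or 41.8% (30.8 to 53.4). In the list labelled with pyruvate, 18 of 29 muscle-restricted peaks were shared, or 62.1% (42.3 to 79.3), and 33 of 47 others, or 70.2% (55.1 to 82.7). Of that whole list 71.8% were shared, and of its peaks listed with a gene 71.5%. The pattern of the list labelled without pyruvate was the same under a reciprocal overlap of 50% and with centres within 100 bases, at 100% and 40.5% in each.

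The 11 unshared muscle-restricted peaks lay in 9 genes, 4 of them promoter-proximal (Kbtbd5, Kbtbd12, Klhl31 and Trim72) and 7 farther away. They were 169 to 310 bases wide with a median of 255, against 176 to 484 and a median of 328 for the 18 shared ones. At Klhl31, Kbtbd5 and Trim72 the nearest peak of the other list was 533, 639 and 408 bases off, and in each case it was the gene's own shared peak. At Kbtbd12 it was 38.7 kb off.

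Peak width was the fifth comparison. Muscle-restricted peaks had a median width of 264 bases (95% order-statistic interval 222 to 331, range 169 to 484) in the list labelled with pyruvate against 331 bases (228 to 391, range 193 to 492) in the other. These intervals overlap. For the other members it was 258 bases (217 to 294, range 169 to 555) and 251 bases (229 to 261, range 144 to 695), and for all peaks 250 and 241. Within the 18 shared muscle-restricted pairs, 9 were wider in the list labelled with pyruvate against 9 in the other, with a median ratio of 1.01. Of the 33 shared pairs of other members, 10 were wider in the list labelled with pyruvate, with a median ratio of 0.915, beside 37.9% of all shared peaks. Width also depends on depth and fragment length, which the files do not give.

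**Figure D4:**
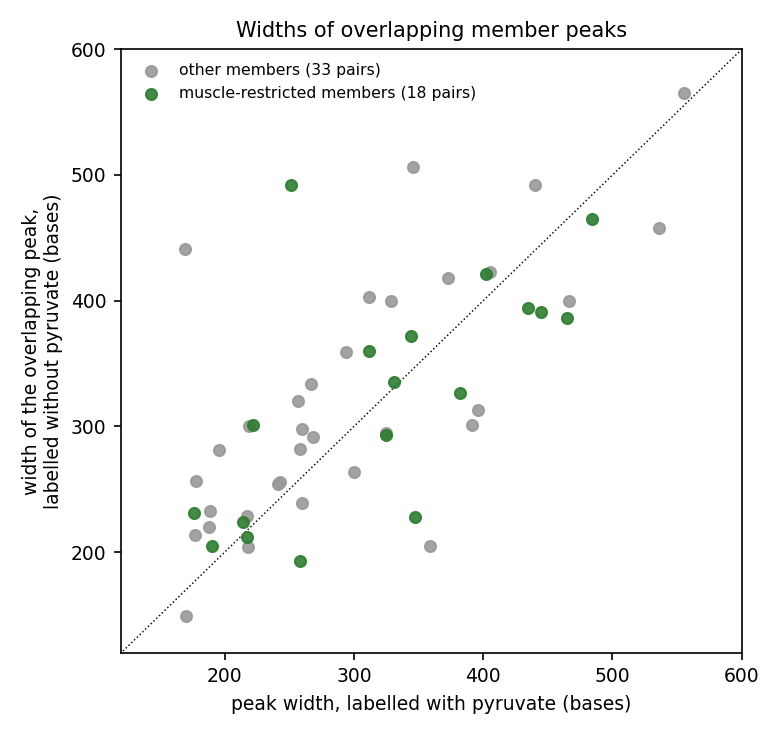
Width in bases of overlapping member peaks in the list labelled with pyruvate (horizontal) and the list labelled without (vertical); green points are 18 pairs at muscle-restricted members, grey points 33 pairs at other members, and the dotted line marks equal width. The green points split 9 and 9 about the line, and 10 of the grey points lie below it.

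Among the other members, the 5 widest peaks of the list labelled with pyruvate all lay inside the gene and beyond 2 kb from its start. Klhl26 held the widest, 555 bases at chr8:72991118-72991673, shared with a peak of 565 bases. Klhl29 followed with 536 bases, 171.0 kb from its start (458 bases in the other list), then Fbxw8 with 466 (400 in the other), Fbxl17 with 440 (492) and Trim11 with 405 (423). All 5 were shared. In the list labelled without pyruvate the widest, 695 bases at chr5:21004284-21004979 in Fbxl13, had no partner. It was followed by Klhl26, a shared Fbxl2 peak of 506 bases (346 in the other list), Fbxl17, and Fbxl14 with an unshared peak of 478 bases near its start.

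Fbxl13 and Fbxl17, long genes for leucine-rich-repeat F-box proteins, held the most peaks. Fbxl13, with a body of 161759 bases, had 4 peaks in the list labelled with pyruvate against 9 in the other, all beyond 100 kb from its start, and all 4 of the former were shared. Fbxl17 (442566 bases) had 3 and 6, Fbxl2 (82555 bases) 2 and 3, and Fbxw8, which works with Cul7, 3 and 4. Fbxo34 had 1 and 4, and Klhl29 (298211 bases) had 3 in each list, of which 1 was shared. Of these 6 genes, 5 had more peaks in the list labelled without pyruvate (53.8% of all genes), but they were named for their number of peaks and that list is the longer, so nothing is read from the count.

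At 5 of the other members both lists held a promoter-proximal peak. Trim39 had one 169 bases wide in the list labelled with pyruvate against 441 in the other, the largest width difference among them. Trim16 had one of 391 and 301 bases, and Klhl21 had peaks up to 268 and 292 bases wide. Trim25, which ubiquitinates the antiviral sensor RIG-I, had one of 260 and 239 bases over its start. Fbxw9 had one of 170 and 149 bases over its start.

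Promoter-proximal peaks were found only in the list labelled with pyruvate at Fbxo31 (343 bases), Fbxo17 (266), Fbxo41 (218) and Trim37 (190). The Fbxo31 peak counts through a flank of a second gene ID of that symbol, of unknown side, and lies 26.8 kb from the start of the first. They were found only in the list labelled without pyruvate at Fbxl14 (478 bases, 662 bases inside the gene), Trim15 (321), Fbxo36 (229), Fbxo24 (218), Trim46 (201), Fbxo3 (192) and Fbxo28 (165). The Fbxl14 peak also lies in the gene region of Wnt5b, and the Trim15 peak also lies inside Trim26.

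Ligases linked to muscle atrophy were taken as a list of 6: Fbxo32, Trim63, Fbxo30 (MUSA1), Fbxo31, Fbxo21 (SMART) and Trim32, the last mutated in a limb-girdle dystrophy. Of these, 3 had a peak, beside 27.1% of RefSeq protein-coding genes. Fbxo32 had peaks in both lists, and Fbxo31 and Fbxo21 only in the list labelled with pyruvate, with 2 peaks (343 and 260 bases) and 1 (214 bases). Over all genes named, 9.95% had a peak only in that list, and 3 genes are too few to set against this share. The nearest peak of the other list was 4236 bases from the first Fbxo31 peak and 63.8 kb from the Fbxo21 peak.

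The shared machinery that these adaptors plug into was described from a list of 45 genes for cullins, RING subunits, Skp1, elongins, neddylation enzymes, the COP9 signalosome and E2 enzymes. The list also held the F-box genes Skp2 and Ccnf, whose symbols fall outside the member rule. Of the 45 genes 13 had a peak: 9, among them Skp2 and Ccnf, had one in each list, 0 had one in the list labelled with pyruvate alone, and 4 had one in the other alone. Beside 27.1% of RefSeq protein-coding genes with a peak, and 55.1%, 9.95% and 35.0% of all genes named, the share with a peak and the share in the other list alone were near the background. Promoter-proximal peaks were found in both lists at 5, among them the E2 genes Ube2d3 (widest 255 and 582 bases) and Cdc34 (widest 439 and 336, from separate peaks). The others were Ube2f (331 and 418, side unknown), Cand2, a cullin exchange factor of muscle (291 and 229), and Ube2d1 (212 and 192). Cops6 (291 bases), Cul4a (220, side unknown) and Uba3 (203, side unknown) had one only in the list labelled without pyruvate.

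Of 11 genes for substrates and partners of the muscle adaptors, 7 had a peak, 6 of them in both lists, beside 27.1% of RefSeq protein-coding genes with a peak and 55.1% of all genes named with one in both. Nrap, a partner of Klhl41, had 3 shared peaks, the widest 694 and 766 bases, and a promoter-proximal one of 288 and 321 bases. Lmod3, the leiomodin that Klhl40 stabilises, had 2 shared peaks, one over its start (286 and 263 bases). Flnc, which encodes the muscle filamin, had 2 peaks in each list. Cav3, muscle caveolin and a partner of Trim72, had 2 promoter-proximal peaks (169 and 217 bases) only in the list labelled with pyruvate.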

How the data were processed

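Binding was measured by ChIP-seq with the MyoD antibody SC-760 in 2 libraries. Per the submitters' processing notes the tools were bcl2fastq 2.19, Bowtie2 2.1.0 and MACS2 2.1.1, and the build was mm9. The sources used here do not give the peak threshold, the use of the inputs, any pooling or the annotation. Per the file headers, the authors deposited 1 row for each peak and gene region it touches. The deposited columns for enrichment hold 0 or a dash in every row (0 rows differ), so only position, width (end minus start) and overlap were used. Lists were assigned to conditions by the sample titles, although abbreviations in the names of the deposited lists can be read the opposite way.

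Rows were reduced to distinct peaks, from 13076 to 11907 and from 20902 to 19338. Coordinates are as deposited. Gene IDs were pooled by symbol. Start sites came from gene bodies and strand or from 2 flanks of a gene, a departure from the plan that located Fbxo24. They were found for 62 of 67 members. Symbols were matched to RefSeq (GRCm38.p6) for names, with all 67 members matched. Members, lists and comparisons were chosen with earlier results of these data known. Named genes were the muscle-restricted members, 6 atrophy ligases, and by rule the 5 widest peaks and the 5 genes with most peaks of each list and up to 8 genes per promoter category among the rest, and up to 4 per category elsewhere; Ube2d1, Flnc and genes in the closing part were added after their values were seen. The overlap and position code was tested on simulated data. Alternatives changed the width minimum, the start window, the muscle list, the overlap rule and the length of the longer list. Software was matplotlib 3.10.9, scipy 1.17.1, pandas 2.3.3, numpy 2.4.6 and Python 3.11.15.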

Additional observations from a re-analysis of the deposited data

How the results depend on the processing

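No paired analysis was possible because each condition had 1 library. Of 92 values under the alternatives, 72 stayed within 1.5 times the count or within the 95% interval of the main value, and 20 moved. In each pair of values the list labelled with pyruvate comes first. With peaks of at least 250 bases, fewer peaks remain by construction. Members with a peak were then 21 and 26 of the others and 9 of the muscle-restricted in the list labelled without pyruvate. Others with a promoter-proximal peak were 5 and 5. Mean peaks per gene were 1.36 and 0.857 (muscle-restricted) and 0.472 and 0.774 (others), and median widths of the others 329 and 299.5 bases. With the longer list cut to its widest peaks, 54.7% of the others' peaks in the list labelled without pyruvate were shared and their median width was 286 bases. A stricter muscle list left 8 members by construction, 8 and 8 with a peak and 7 with a promoter-proximal peak in the list labelled with pyruvate. Within 1 kb of located starts 7 and 6 muscle-restricted members had a peak, and with a 10 kb window 18 and 24 of the others. The share of muscle-restricted peaks of the list labelled without pyruvate that were shared was 100% in 5 of its alternatives and 91.7% with peaks of at least 250 bases. Unknown depth limits every count of peaks missing from a list.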

Other observations

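Some members had peaks in both lists at different places. Klhl22 had 1 peak in each list with no overlap, 181 bases wide in the list labelled with pyruvate against 261 in the other, and 14.3 kb apart. Klhl29 had 2 unshared peaks in each list beside its shared one.

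On chromosome 11, Trim11 had a shared peak (405 and 423 bases), and Trim17 a peak of 189 bases only in the list labelled with pyruvate, 9841 bases from that Trim11 peak of the other list. Trim7, which binds glycogenin, had a shared peak of 267 and 334 bases 8102 bases inside the gene.

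Some peaks were also listed with a second gene. Of 76 member peaks (list labelled with pyruvate) and 97 (without), 15 and 16 were also paired with a gene outside the families. The same share over all peaks listed with a gene was not counted, so nothing about these families is read from it. At Fbxo36 the proximal peak also lay in Trip12, which encodes another ubiquitin ligase, and at Kbtbd10 the farther upstream peak was also listed for Bbs5. The files' own KEGG annotation places 50 of their genes under ubiquitin mediated proteolysis, of which 3 were members (Fbxw11, Fbxw8 and Trim37), and places Fbxo32 under FoxO signalling.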
